A study of Homo sapiens and Mus musculus with 33 samples.

Results

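The genes described here encode 10 histone acyltransferases: EP300, CREBBP, KAT2A, KAT2B, KAT5, KAT6A, KAT6B, KAT7, KAT8 and HAT1. They were chosen by name and not by a measured value, though with earlier results of these data known. All 10 were found among the 35805 genes of the HCT116 RNA table and the 25965 genes of the colon RNA table, where Kat6a, Kat6b and Kat7 carry the older symbols Myst3, Myst4 and Myst2. ChIP-seq peaks were taken as theirs when they lay in the gene or within 2 kb of it. This gave 19 of 40266 peaks in HCT116 cells, 19 of 30338 H3K18cr peaks in mouse colon and 17 of 27035 H3K4me3 peaks in mouse colon.

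Histone acyltransferases move an acyl group from a coenzyme A donor onto lysine side chains, acetyl in the best known case. EP300 (p300) and its paralog CREBBP (CBP) are transcriptional coactivators that acetylate H3K18 and can also use crotonyl-CoA to write crotonyl-lysine. KAT2A (GCN5) and KAT2B (PCAF) are the paralogous catalytic subunits of the SAGA and ATAC complexes, KAT5 (TIP60), KAT6A, KAT6B, KAT7 (HBO1) and KAT8 (MOF) form the MYST family, and HAT1 acetylates newly made histone H4. Class I histone deacetylases remove acetyl groups and can also remove crotonyl groups.

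HCT116 is a human line of epithelial colon cancer cells. In all HCT116 groups the cells were kept in the same medium and received 5 µM MS275 (entinostat, an inhibitor of class I histone deacetylases) or its solvent DMSO for 18 h. RNA was sequenced in 4 libraries per treatment, described in the methods as biological replicates, and H3K18cr (crotonylated lysine 18 of histone H3) and H3K18ac (its acetylated form) were mapped by ChIP-seq in 3 libraries per treatment with 1 input library per treatment. The colon samples are epithelial cells of untreated male C57BL/6 mice: RNA from 3 mice, H3K18cr in 2 libraries with 2 inputs and H3K4me3, a promoter mark, in 3 libraries with 1 input. The labels give no age and no genotype beyond the strain. The methods state that the ChIP experiments used pooled colons, while one figure legend of the study speaks of 2 mice. HCT116 is 1 cell line, and the methods name 2 replicates for HCT116 H3K18cr where the labels give 3. In the part on ChIP-seq and ChIP-qPCR of these cells, the methods speak of 2 biological replicates of each experiment. Nothing in the sources says that the 3 ChIP-seq libraries of a group came from separate cultures, so the p-values for peaks measure the spread between these libraries only.

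RNA libraries held 35608533 to 53415604 counts in HCT116 and 8166406 to 10707901 in colon, and ChIP libraries of the marks held 2236551 to 5730094 reads in peaks in HCT116 and 1105419 to 3451663 in colon. Both HCT116 RNA libraries numbered 3 stood apart: mitochondrial genes took 9.28% (DMSO) and 10.3% (MS275) of their counts against 1.57 to 3.19% in the other 6, and in these libraries EP300, CREBBP, KAT2B, KAT6A, KAT7 and HAT1 were lowest within their treatment and KAT2A was highest. Colon RNA carried all 10 epithelial markers examined, with a summed level of 12228 to 13841 CPM (counts scaled to a fixed library total), against 72.8 to 92.0 for 10 immune and 43.8 to 55.2 for 10 stromal and endothelial markers, of which Pdgfra was at 0. In HCT116 the epithelial sum was 3508 to 5215 CPM with DMSO and 4504 to 5822 with MS275, and of the 7 markers tested 0 were called without pairing, while 4 were called higher and 2 lower in the fit with same-numbered libraries paired. EPCAM and the keratins KRT8, KRT18 and KRT19 were high, but CDX1 was at 0 in every library and LGALS4 and VIL1 averaged under 1 CPM. The summed stromal list was 14.0 to 18.1 CPM with DMSO and 25.6 to 29.2 with MS275, with 0 of 4 tested called without pairing and 1 called higher with it. The summed level of 15 S phase genes was 3504 to 5206 CPM with DMSO and 2923 to 4588 with MS275, with 0 of 15 called without pairing and 8 called lower with it. In the paired fit 7.83% of all genes were called higher and 6.55% lower. The part of these shifts in the results was not tested. In bulk samples fewer cells of a type and less RNA per cell cannot be told apart.

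Upstream sequences are shown for 4 genes picked after their values in HCT116 were seen: KAT5, which had the largest estimated fall in H3K18cr reads, HAT1, one of 4 starts with close and large falls in H3K18ac reads, KAT2A, whose RNA was lower with MS275, and KAT2B, whose marks with DMSO were closest to input. Each is the 250 bases before the outermost annotated start (GENCODE 44) read from GRCh38, 5′ to 3′ on the strand of the gene, and each lies inside the start peak of its gene. They are at chr11:65711746-65711995 (KAT5, plus strand), chr2:171922198-171922447 (HAT1, plus strand), chr17:42121368-42121617 (KAT2A, minus strand) and chr3:20040196-20040445 (KAT2B, plus strand). Capitals mark matches on either strand to the GC box (GGGCGG), the CCAAT box, the core bound by ETS factors (CCGGAAG) and the E box (CACGTG).
KAT5: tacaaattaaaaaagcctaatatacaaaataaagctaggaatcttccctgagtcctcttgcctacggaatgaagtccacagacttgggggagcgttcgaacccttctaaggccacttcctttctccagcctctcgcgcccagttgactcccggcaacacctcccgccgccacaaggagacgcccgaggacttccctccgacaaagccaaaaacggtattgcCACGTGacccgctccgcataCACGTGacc
HAT1: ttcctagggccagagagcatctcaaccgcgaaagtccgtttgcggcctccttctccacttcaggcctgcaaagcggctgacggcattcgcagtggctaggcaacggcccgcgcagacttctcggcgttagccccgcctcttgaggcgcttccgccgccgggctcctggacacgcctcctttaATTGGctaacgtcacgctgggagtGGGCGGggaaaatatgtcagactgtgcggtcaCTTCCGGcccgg
KAT2A: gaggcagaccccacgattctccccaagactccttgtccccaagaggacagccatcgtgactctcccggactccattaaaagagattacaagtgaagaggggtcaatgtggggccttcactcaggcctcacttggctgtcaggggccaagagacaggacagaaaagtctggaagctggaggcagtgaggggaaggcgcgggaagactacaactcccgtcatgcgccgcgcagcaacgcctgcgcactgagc
KAT2B: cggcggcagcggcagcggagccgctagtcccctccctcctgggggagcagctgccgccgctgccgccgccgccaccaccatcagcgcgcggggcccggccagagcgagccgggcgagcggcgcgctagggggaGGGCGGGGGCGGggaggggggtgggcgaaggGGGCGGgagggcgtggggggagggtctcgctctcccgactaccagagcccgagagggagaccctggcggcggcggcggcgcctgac

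The KAT2B sequence had 80.8% G and C, 33 CpG pairs and 3 copies of the GC box. HAT1 had 63.2% G and C with 1 match each to the GC box, the CCAAT box and the ETS core. KAT5 had 53.6% G and C and 2 copies of the E box, a motif that was added to the search after this window had been seen, and KAT2A had 58.8% G and C and none of the motifs. The TATA box (TATAAA) and the CRE (TGACGTCA) were in none of the 4 windows. Among 35116 RefSeq promoter windows of the same length (GRCh38.p14), the median was 58% G and C, 42.6% held the GC box, 32.0% the CCAAT box, 8.52% the ETS core, 6.34% the E box, 10.7% the TATA box and 1.65% the CRE. The KAT5 window shown is not among them. The RefSeq window of KAT5 had 66.4% G and C, 2 matches to the ETS core and 1 to the E box.

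The first question was how much of each acyltransferase RNA the cells contained. Levels are given as CPM divided by transcript length in kb (the coding transcript with the longest coding sequence), so that genes can be compared. In DMSO-treated HCT116 cells HAT1 had the highest mean, with 75.8, 59.4, 24.0 and 59.0 CPM per kb in libraries 1 to 4. It was first in 3 of 4 libraries, and in library 3 KAT2A (25.9) was above it. KAT5 followed at 22.8 ± 2.07 (SD, n = 4), then KAT8 at 18.3 ± 2.40 and KAT2A at 18.2 ± 5.68. The ranges of these 4 genes overlapped from one neighbour to the next, and the lowest KAT2A library (13.0) was above the highest KAT6A library (9.97).

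KAT6A (7.91 ± 2.60), KAT7 (7.90 ± 1.66), CREBBP (7.28 ± 1.25), EP300 (6.36 ± 2.01) and KAT6B (4.22 ± 0.624) formed a second run in which each neighbour overlapped the next. KAT2B was lowest, with 1.09, 1.70, 0.122 and 2.04 CPM per kb, all below the lowest KAT6B library (3.34). The level of HAT1 was above that of 90.5% of 14693 protein-coding genes with counts, and KAT2B was above 32.1% of them. KAT2B in DMSO library 3 rested on 19 counts, against 213 to 497 in the other DMSO libraries.

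In mouse colon epithelium the spread among members was narrower. Kat7 was highest at 21.5 ± 3.02 CPM per kb (n = 3 mice) and did not overlap the next gene. Kat5 (16.5 ± 1.11), Hat1 (15.9 ± 1.84) and Kat2a (15.6 ± 1.47) overlapped each other, and so did the neighbours among Kat6a (12.8 ± 0.813), Crebbp (12.2 ± 1.44), Ep300 (11.9 ± 0.702), Kat2b (10.3 ± 1.24) and Kat8 (9.95 ± 0.772). Kat6b was lowest at 4.46 ± 0.843, with all mice (3.86 to 5.42) below the lowest Kat8 value (9.07).

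Paralogs were also compared within each library. The KAT2A level was 6.38 to 213 times that of KAT2B in the 4 DMSO libraries of HCT116 and at most 1.65 times that of Kat2b in the 3 mice, with Kat2a higher in each. The upper end came from DMSO library 3. EP300 was 0.691 to 1.22 times CREBBP in HCT116 and 0.924 to 1.04 times in colon, and KAT6A was 0.919 to 2.57 times KAT6B in HCT116 and 2.42 to 3.28 times in colon. These ratios depend on the length used. With all annotated exons joined, EP300 was 0.745 to 1.32 times CREBBP in HCT116 and 0.775 to 0.873 times in colon, and KAT6A was 1.38 to 3.85 and 5.26 to 7.12 times KAT6B. KAT2A was 6.22 to 208 and 1.19 to 1.51 times KAT2B with that length. Species, culture and library set differ between these tables, and no test was made between them.

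**Figure D1:**
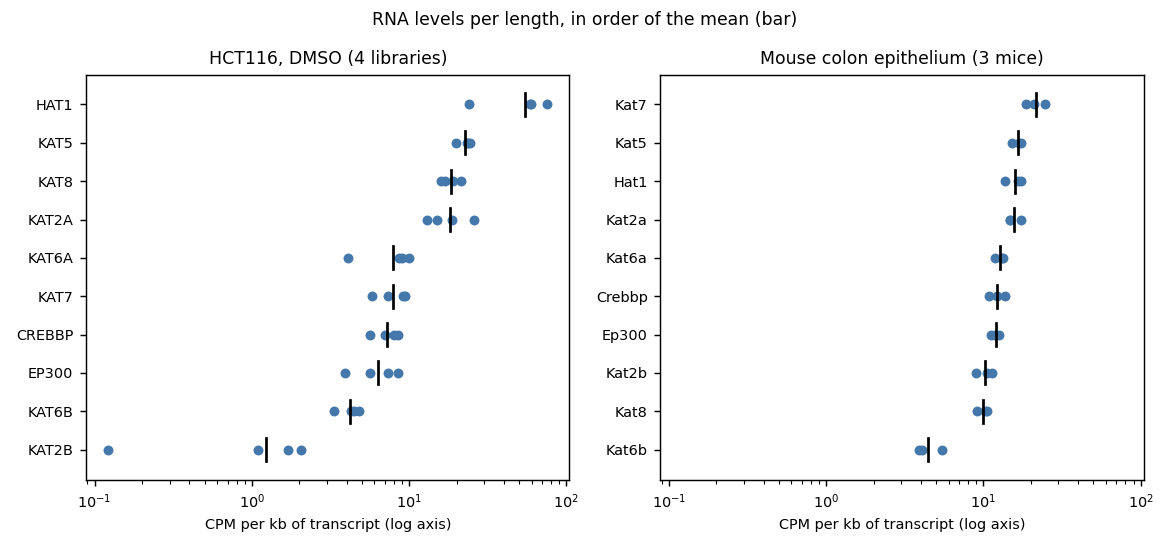
RNA level per length of the 10 genes in DMSO-treated HCT116 cells (left, 4 libraries) and mouse colon epithelium (right, 3 mice), in CPM per kb of transcript on a log axis. Points are libraries and bars are means; KAT2B lies alone at the bottom in HCT116, while Kat2b lies beside Kat8 and Ep300 in colon.

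Transcript length affects the order. With the length of all annotated exons joined, KAT2A had the highest mean in both HCT116 (15.0) and colon (13.7), but its range overlapped the next gene in each. HAT1 was above KAT2A in DMSO libraries 1, 2 and 4, and Kat7 was above Kat2a in 2 of 3 mice, by small amounts. With this length KAT2B (1.05) and KAT6B (1.08) were last together in HCT116 with overlapping ranges.

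The second question was whether MS275 changed these RNAs. Values are CPM scaled by the trimmed mean of M values (TMM), and changes are MS275 minus DMSO on the log2 scale. Without pairing, 0 of the 10 members passed an adjusted p of 0.05 in the edgeR quasi-likelihood test, where 0.00668% of 14961 genes did (1 gene). At an unadjusted p under 0.05 there were 2 of 10 members (KAT2A and KAT6B) and 987 genes in all (6.60%), and DESeq2 called 0 members and 0.936% of genes. With same-numbered libraries paired, 2 of 10 were called, KAT2A and KAT6B, both lower, where 14.4% of genes were called in either direction and 6.55% were lower. The pairing moved the call and not the size of either change.

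KAT2A was at 58.3, 46.9, 80.8 and 40.6 CPM in DMSO libraries 1 to 4 and at 36.8, 25.6, 52.6 and 27.9 CPM in the MS275 libraries of the same numbers. It was lower with MS275 in 4 of 4 pairs, and the groups overlapped only through MS275 library 3. The log2 change was −0.65 ± 0.29 (SE, adjusted p = 0.735) without pairing and −0.66 ± 0.10 (adjusted p = 0.00114) with it. Leaving out DMSO library 3 or MS275 library 3 alone moved the unpaired change to −0.42 or −0.92. Without both libraries numbered 3, the paired change was −0.69 ± 0.11 (adjusted p = 0.00155).

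KAT6B, a MYST acetyltransferase of H3 that works with BRPF proteins, was at 27.8, 35.6, 37.2 and 39.8 CPM with DMSO and at 26.1, 19.6, 21.7 and 28.4 CPM with MS275. It too was lower in 4 of 4 pairs, with 1 MS275 library (28.4) just above the lowest DMSO library (27.8). The log2 change was −0.54 ± 0.19 (adjusted p = 0.567) without pairing and −0.54 ± 0.13 (adjusted p = 0.0184) with it.

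KAT5, the catalytic subunit of the TIP60 complex, was at 50.4, 48.6, 41.0 and 49.4 CPM with DMSO and at 41.5, 36.7, 39.7 and 37.0 CPM with MS275. Only DMSO library 3 lay within the range of the MS275 libraries. The paired log2 change of −0.28 ± 0.10 did not pass (adjusted p = 0.0845), but it was called without the libraries numbered 3 (−0.37 ± 0.10, adjusted p = 0.0225), a fit in which 17.2% of genes were called and 8.82% were lower.

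KAT7 and KAT8 were also lower in 4 of 4 pairs, by small amounts that did not pass. Their paired log2 changes were −0.19 (95% interval −0.37 to −0.02, adjusted p = 0.137) and −0.15 (−0.38 to 0.08, adjusted p = 0.401). Without pairing their intervals were −0.65 to 0.27 and −0.53 to 0.22. The share of all genes lower in 4 of 4 pairs is not given here, so 4 of 4 describes single genes only. For EP300 the paired interval was −0.26 to 0.27, for CREBBP −0.28 to 0.06, for KAT6A −0.02 to 0.33 and for HAT1 −0.30 to 0.15. Without pairing the intervals of these genes were wider, at −0.62 to 0.67, −0.54 to 0.35, −0.50 to 0.80 and −0.83 to 0.56. KAT2B had the widest paired interval, −0.20 to 1.51, and its paired change of 0.66 became 0.12 without the libraries numbered 3.

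No member (0 of 10) had groups that lay fully apart, where 2.21% of genes had all MS275 libraries below all DMSO libraries and 3.26% had them above. The median change over the 10 members was −0.14 against 0.01 over all genes tested.

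**Figure D2:**
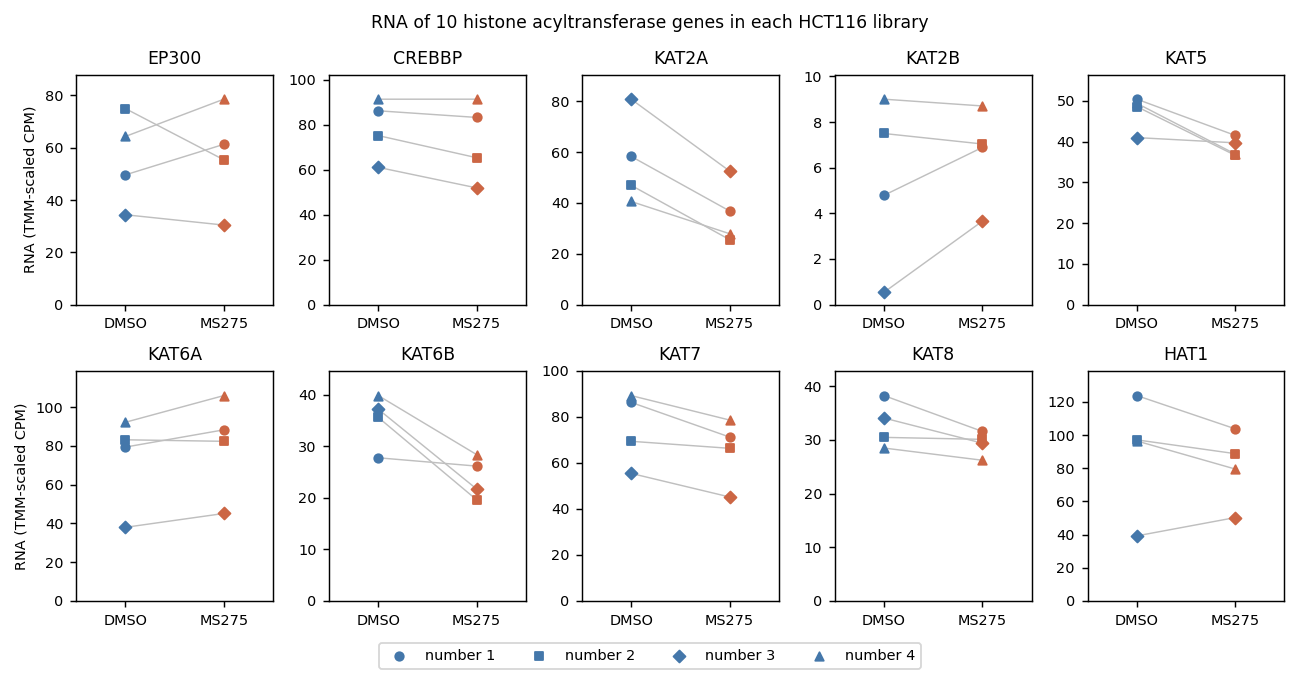
RNA of each gene in every HCT116 library, in TMM-scaled CPM on axes that start at 0. Symbols give the library number and lines join libraries of the same number; KAT2A, KAT5, KAT6B, KAT7 and KAT8 fall along all 4 lines, and the libraries numbered 3 are low for EP300, KAT6A and HAT1 and high for KAT2A.

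Most of these enzymes act inside complexes, so 80 subunits, partners and other acetyltransferases were examined as well. All 80 were tested. None (0) was called without pairing by edgeR, where 0.00668% of all genes were. At an unadjusted p under 0.05 there were 7 of 80 (8.75%) in that fit, against 6.60% of all genes. DESeq2 called 3 of 80 (3.75%), against 0.936% of all genes. With pairing 16 of 80 (20%) were called, 12 lower and 4 higher, against 14.4% of all genes (6.55% lower and 7.83% higher). Of the KAT2A and KAT2B complexes 3 of 24 were lower, of the KAT5 complex 2 of 16 were lower, and of the KAT6A, KAT6B and KAT7 complexes 3 of 8 were lower and 1 was higher. Of the KAT8 complexes 3 of 10 were lower and 1 was higher, of the EP300 and CREBBP partners 1 of 8 was lower and 2 were higher, and of 5 HAT1 partners and 9 other acetyltransferases 0 were called.

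Among the partners called with pairing, JADE2, a scaffold of KAT7 complexes, had the largest fall, from 67.4, 79.7, 60.3 and 72.2 CPM with DMSO to 31.8, 35.4, 25.4 and 38.3 CPM with MS275. The groups did not overlap, and the paired log2 change was −1.09 ± 0.09 (adjusted p = 6.58e-05). EPC1, a scaffold of the KAT5 complex, fell by 0.91 ± 0.18 on the log2 scale (adjusted p = 0.0061), and TAF6L, a SAGA subunit, fell by 0.57 ± 0.15 (adjusted p = 0.0283). The largest rises among the partners called were those of NCOA3, a nuclear receptor coactivator (0.60 ± 0.09, adjusted p = 0.00169), CITED2, which binds the CH1 domain of EP300 and CREBBP (0.48 ± 0.10, adjusted p = 0.00679), and JADE3, a paralog of JADE2 (0.42 ± 0.12, adjusted p = 0.0368). JADE3 was not called without the libraries numbered 3 (0.34, adjusted p = 0.069), while the other 5 were. The paired estimates of CITED4 (0.75, adjusted p = 0.0854) and SUPT3H (0.73, adjusted p = 0.149) were larger than those of these 3 and did not pass.

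Of the erasers, HDAC1, HDAC2 and HDAC3 had paired changes of 0.06, −0.08 and 0.14 that did not pass (adjusted p = 0.539, 0.464 and 0.268). CDKN1A, a gene known to respond to deacetylase inhibitors, was higher in 4 of 4 pairs, with a paired change of 0.28 ± 0.07 (adjusted p = 0.0167). Without pairing the change was 0.28 ± 0.18 and was not called (adjusted p = 0.870).

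Genes with the most similar profile over the 8 HCT116 RNA libraries, among 12085 genes with a mean of at least 100 counts, were PHF19 (Pearson's r = 0.993) and SLC19A1 (0.989) for KAT2A. For HAT1 they were ORC2 (0.987) and WEE1 (0.985), and for EP300 they were ZNRF3 (0.984) and MTM1 (0.980). KAT6A was closest to VCPIP1 (0.996). All points share the same 8 libraries, 2 of which stand apart.

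The third question was whether H3K18cr and H3K18ac at these genes changed with MS275. Of the 19 HCT116 peaks, 11 lay at a start of the member itself (within 1 kb of the start of one of its annotated transcripts) and 8 lay in introns, 3 in CREBBP and 5 in KAT6B. Every member had a start peak. KAT5 had 2. The second lies 47 bp past the end of KAT5 at the start of its neighbour RNASEH2C, and it counts as a KAT5 start because an annotated KAT5 transcript starts 945 bp away. The KAT7 peak also covers the start of FAM117A. Values are the deposited reads per peak, scaled by the authors to the largest library, and their log2 values entered a limma fit over all peaks of the table. The start peaks of the genome, given for comparison, lie within 1 kb of a start of any protein-coding gene. Because each library is scaled to the same size, a value is the relative share of a library's reads that lay in a peak. A lower value is a lower share and not a measure of how much of the mark the cells or the promoter carried, and no spike-in is named in the sources used here.

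The share of H3K18cr reads was lower with MS275 at 9 of the 11 start peaks, where 55.1% of 12821 start peaks in the genome were called lower. The share of H3K18ac reads was also lower at 9 of 11, where 43.1% of 12820 start peaks were. The median log2 change over the 11 peaks was −0.72 for H3K18cr and −0.91 for H3K18ac, against −0.54 and −0.60 over all start peaks. Over peaks of every kind, 23% were called lower for H3K18cr and 16.3% for H3K18ac. Groups lay apart, all MS275 libraries below all DMSO libraries, at 9 of 11 for H3K18cr and 8 of 11 for H3K18ac (61.9% and 50% of all start peaks).

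Some of these calls depended on single libraries and on the model. Without MS275 library 2, 4 member peaks were called for H3K18ac, those of EP300, KAT5, KAT8 and HAT1 (adjusted p = 0.0384, 0.0274, 0.0392 and 0.0269), where 9.82% of start peaks were called lower. CREBBP, KAT2A, KAT6A, KAT7 and the peak at RNASEH2C were then not called (adjusted p = 0.216, 0.206, 0.273, 0.0844 and 0.135). CREBBP, KAT2A and KAT6A were also not called for H3K18ac without DMSO library 2, DMSO library 3 or MS275 library 3. For H3K18cr, KAT6B was not called without DMSO library 1 (adjusted p = 0.0725), and KAT6A and the peak at RNASEH2C each lost the call when any 1 of 4 libraries was left out, DMSO library 1 among them (0.167 and 0.181). With same-numbered ChIP libraries as a block in the model, HAT1 was the 1 member called for H3K18ac (adjusted p = 0.0469, where 5.4% of start peaks were), with KAT8, KAT5 and EP300 at 0.0526, 0.0531 and 0.0643, while 10 of 11 were called for H3K18cr (60.9% of start peaks). The labels do not say whether these numbers mark pairs, and a figure legend of the study names a paired test for these libraries.

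The KAT5 start (chr11:65710951-65713500, over coding exon and UTR) had the largest estimated fall in scaled H3K18cr reads. It held 226, 285 and 260 scaled reads in the DMSO libraries and 74.2, 87.8 and 144 in the MS275 libraries. The log2 change was −1.38 ± 0.20 (adjusted p = 2.62e-05). H3K18ac reads there fell from 224, 279 and 372 to 157, 125 and 109 reads, a change of −1.15 ± 0.25 (adjusted p = 0.000357).

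EP300 (chr22:41090551-41094150) carried the most H3K18cr and H3K18ac per kb among the members, above 98.9% and 99.0% of all 12833 start peaks. H3K18cr was 446, 434 and 382 reads with DMSO and 192, 211 and 276 with MS275 (−0.91 ± 0.16, adjusted p = 0.000155). H3K18ac was 387, 505 and 707 reads with DMSO and 287, 218 and 212 with MS275 (−1.13 ± 0.25, adjusted p = 0.000387). The RNA of EP300 had a paired interval around 0 in the same cells.

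HAT1 (chr2:171921451-171924450) had the largest estimated fall in scaled H3K18ac reads, with KAT5, KAT8 and EP300 within its error. Without DMSO library 2 the falls at KAT8 (−1.19) and KAT5 (−1.16) were larger than that at HAT1 (−1.15). The 3 DMSO libraries held 229, 308 and 348 reads and the MS275 libraries 160, 117 and 110 (−1.19 ± 0.25, adjusted p = 0.000213). H3K18cr reads fell from 201, 175 and 187 to 91.1, 102 and 133 reads (−0.80 ± 0.18, adjusted p = 0.00106).

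CREBBP, KAT7 and KAT8 had lower shares of reads for both marks. For H3K18cr the log2 changes were −0.72 ± 0.17, −0.81 ± 0.18 and −0.88 ± 0.19 (adjusted p = 0.0017, 0.00109 and 0.00071), and for H3K18ac they were −0.77 ± 0.25, −0.999 ± 0.25 and −1.14 ± 0.25 (adjusted p = 0.0189, 0.00171 and 0.000399). KAT6A changed by −0.55 ± 0.18 for H3K18cr and −0.75 ± 0.25 for H3K18ac (adjusted p = 0.0257 and 0.0244). The peak shared with RNASEH2C changed by −0.63 ± 0.20 and −0.91 ± 0.25 (adjusted p = 0.0229 and 0.00396).

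KAT6B (chr10:74824351-74828400) and KAT2A (chr17:42120301-42121800) were each called for 1 mark. At KAT6B H3K18cr was 320, 273 and 257 reads with DMSO and 195, 191 and 184 with MS275 (−0.57 ± 0.16, adjusted p = 0.0079), and H3K18ac just missed (−0.66 ± 0.25, adjusted p = 0.0526). At KAT2A H3K18ac was called (−0.77 ± 0.25, adjusted p = 0.0177) with overlapping groups of 58.9, 75.4 and 121 against 67.5, 39.6 and 40.9 reads. H3K18cr at KAT2A was not called (−0.52 ± 0.23, adjusted p = 0.105).

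KAT2B (chr3:20039551-20041500) was called for neither mark. H3K18cr was 88.0, 88.7 and 43.3 reads with DMSO and 76.5, 63.7 and 61.7 with MS275 (−0.06, 95% interval −0.52 to 0.41). H3K18ac was 39.6, 54.3 and 69.5 reads and then 70.1, 34.6 and 52.4 (−0.08, −0.57 to 0.41). With DMSO the peak held 1.88 times the input for H3K18cr and 1.39 times for H3K18ac, where EP300 held 5.98 and 7.57 times. Its H3K18ac per kb was above that of 6.14% of start peaks. KAT2B was thus lowest of the main starts for both marks per kb and lowest in RNA, but the orders differed for other members: EP300 was first for both marks and 8th of 10 in RNA per kb, and KAT2A was next to last for both marks and 4th in RNA.

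**Figure D3:**
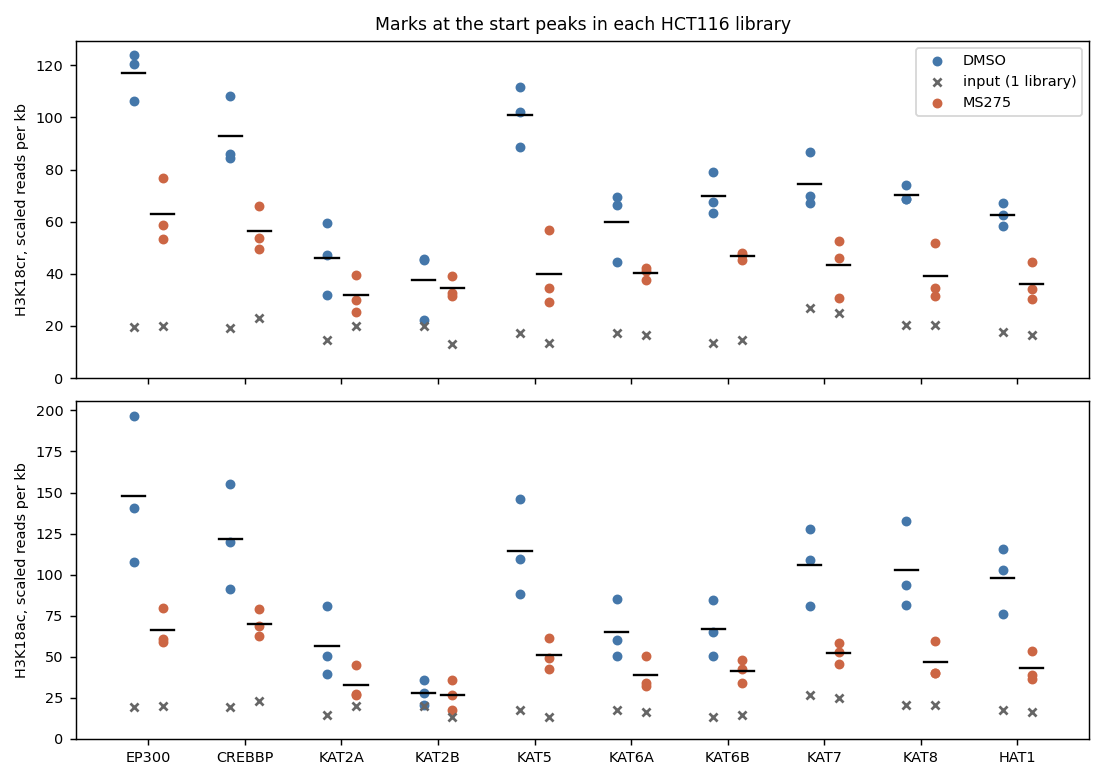
H3K18cr (top) and H3K18ac (bottom) at the start peak of each gene in every HCT116 library, in scaled reads per kb of peak. Points are the 3 libraries of a treatment, bars their means and crosses the single input of that treatment; MS275 points lie below DMSO points for 8 of the 10 genes in the top panel, and overlap them for KAT2A and KAT2B.

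None of the intronic peaks (0 of 8) was called for either mark, where 7.91% of all peaks away from starts were called lower for H3K18cr and 3.68% for H3K18ac. Their median change was 0.01 for H3K18cr, and −0.02 over the 7 of 8 that passed the filter for H3K18ac. The intronic KAT6B peak at chr10:74921401-74925750, the widest of them, held 134, 141 and 130 H3K18cr reads with DMSO and 132, 156 and 142 with MS275 (0.08, 95% interval −0.26 to 0.43). The other 7 held at most 75.9 reads in any library, and their intervals are wide.

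Whether the marks changed by different amounts was tested by the interaction of mark and treatment. It was called at 0 of 19 member peaks and at 0% of 40266 peaks by limma. At an unadjusted p under 0.05 it stood at 0 of 19 and 739 of 40266 (1.84%). The interaction at the 11 start peaks had a median of 0.20, and at HAT1, where the point estimate was largest, the 95% interval of the difference was −0.22 to 0.99. The size of difference between the marks that 3 libraries per group could detect was not tested. Across the 18 member peaks tested for both marks, the 2 changes correlated at r = 0.806 (rho = 0.839), a description over peaks measured in the same cell line.

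**Figure D4:**
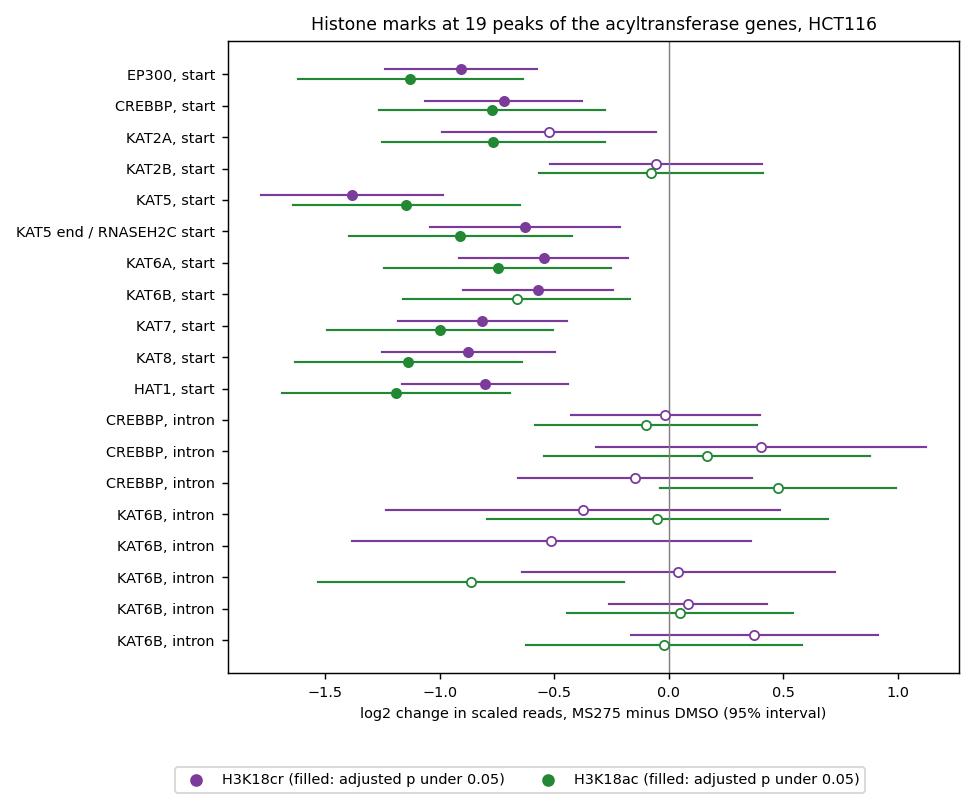
Change of H3K18cr (purple) and H3K18ac (green) with MS275 at the 19 peaks of the acyltransferase genes in HCT116, as log2 difference in scaled reads with its 95% interval. Filled points have an adjusted p under 0.05; the points of all start peaks lie to the left of 0, the 2 of KAT2B close to it with intervals on both sides, and intronic peaks scatter on both sides with no filled point.

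The size of these relative changes depends on how libraries are normalised. With TMM scaling in place of the authors' scaling, the H3K18cr median over all peaks moved from −0.20 to 0.04, and the H3K18ac median from −0.19 to 0.06. Relative to that, 6 of the 11 H3K18cr start peaks were called lower (EP300, CREBBP, KAT5, KAT7, KAT8 and HAT1, against 29.7% of all start peaks), with a median change of −0.48. For H3K18ac 9 of 11 were called (43.9% of all start peaks), among them KAT6B (adjusted p = 0.0177) but no longer KAT2A (0.0523), and 1 intronic CREBBP peak was called higher, where 4.56% of all peaks were. KAT2B turned to small positive values of 0.17 and 0.16, neither called. Before scaling, the MS275 libraries held 2236551 to 3530311 reads in peaks and the DMSO libraries 3197649 to 5730094, and the part of this in the falls was not tested. For the input, the log2 ratio of MS275 to DMSO over the 11 start peaks had a median of −0.07, but it was −0.60 at KAT2B, −0.37 at KAT5, 0.27 at CREBBP and 0.41 at KAT2A, with 1 input library per treatment and therefore no error. Divided by the input of the same treatment, mean H3K18cr went from 5.80 to 3.01 times input at KAT5, from 4.86 to 2.44 at CREBBP, from 3.13 to 1.60 at KAT2A and from 1.88 to 2.64 at KAT2B. On this scale KAT5 no longer stood ahead of the others, and KAT2B was higher with MS275.

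In mouse colon epithelium each of the 10 genes had a start peak of H3K18cr and of H3K4me3. These are the mouse orthologues in untreated tissue. Values are log2 ratios of ChIP to input after 1 read was added to each, and no test was made. Ep300 had the highest H3K18cr ratio in both libraries, 1.90 and 2.72, and Kat2a had the lowest in both, 0.60 and 1.44. Kat6b (1.62 and 2.36) and Kat2b (1.62 and 2.27) were among the upper 4 in both. Hat1 was next to last in both, at 1.02 and 1.74.

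Library 2 was above library 1 at every member start, so only places held in both libraries can be read as an order. For a summary, the mean ChIP value over libraries was divided by the mean input before the logarithm was taken. On that scale the median over the 11 H3K18cr start peaks (Kat6a has 2 adjoining ones) was 1.77, against 1.53 over all 11430 start peaks of that table.

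For H3K4me3, Kat2b was highest in all 3 libraries, at 2.78, 3.78 and 4.05. Ep300 (2.73, 3.61 and 3.89) was in the first 3 in each library. Crebbp was at 2.47, 3.39 and 4.02, between the second and the fifth place, while Kat7 (1.85, 2.08 and 2.49) and Kat8 (1.62, 2.55 and 2.70) were among the lowest. Kat5 was at 1.71, 2.50 and 2.96. The median over the 10 start peaks, from the means in the same way, was 3.08, against 2.46 over 14453 start peaks.

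Kat7 thus had the highest RNA level per kb of coding transcript and one of the lowest H3K4me3 ratios, and Kat2a had the lowest H3K18cr ratio with an RNA level in the upper group. With joined exons as length, the mean RNA level of Kat7 (13.2) was below that of Kat2a (13.7), with overlapping ranges. The start peak of KAT2B was the closest to input of the 10 for both marks in HCT116 cells with DMSO, and that of Kat2b was the most enriched of the 10 for H3K4me3 in colon. These are different marks in different species. For H3K18cr, which was mapped in both, Kat2b was 3rd and 4th of 10 in colon libraries 1 and 2.

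**Figure D5:**
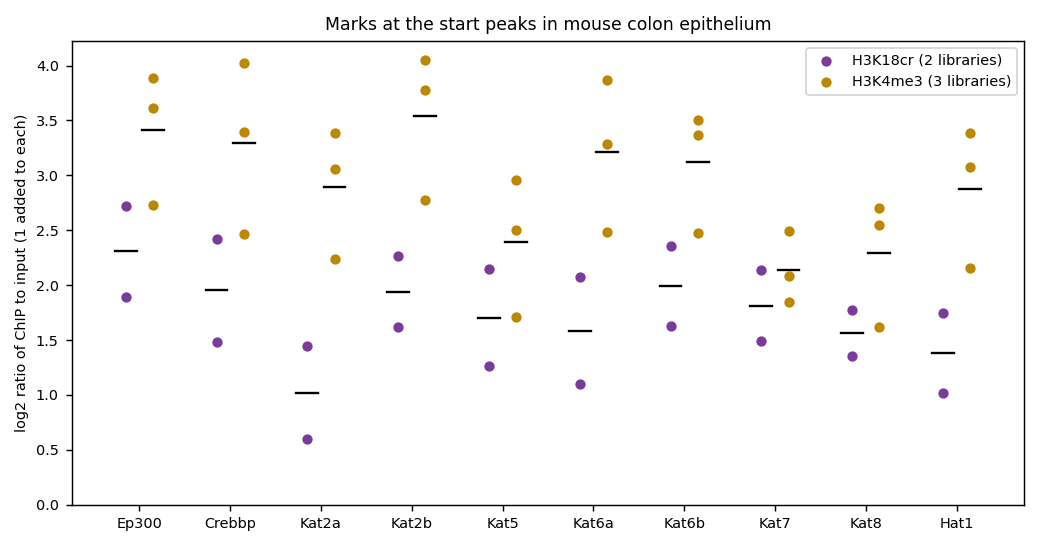
H3K18cr (purple, 2 libraries) and H3K4me3 (yellow, 3 libraries) at the start peak of each gene in mouse colon epithelium, as log2 ratio of ChIP to input with 1 added to each. Bars are means and Kat6a shows the wider of its 2 H3K18cr start peaks; Ep300 leads for H3K18cr and Kat2b for H3K4me3.

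Away from the members' own starts lay 8 of the 19 H3K18cr peaks and 7 of the 17 H3K4me3 peaks in colon. H3K18cr had intronic peaks in Kat2b (ratios 0.71 and 1.40) and Kat6b (1.28 and 0.86), and 2 peaks over exons of Kat8. H3K4me3 had peaks over exons of Ep300 (0.51, 1.81 and 1.47) and Crebbp (0.70, 0.98 and 1.03) and in an intron of Kat6a (0.19, 1.79 and 1.25), all below the ratios at the starts of these genes in the same library. The peaks just past the ends of Kat2a, Kat5 and Kat8 lay at the starts of Dhx58, Rnaseh2c and Prss8 and over 1 kb from a transcript start of the member, apart from 1 further peak of each mark between Kat8 and Prss8. Crebbp had no H3K18cr peak away from its start.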

How the data were processed

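RNA-seq and ChIP-seq of HCT116 cells and mouse colon epithelium were analysed from 5 tables. The RNA tables hold read counts per gene as the authors deposited them. The HCT116 ChIP table holds log2 values deposited by the authors, the log2 of reads per peak scaled to the largest library, and the colon ChIP tables hold the same kind of scaled reads as a signal deposited by the authors without logarithm. Reads were trimmed with Trim Galore, mapped (HiSat2 for RNA and Bowtie2 for ChIP in the methods; TopHat2 2.0.12 and Bowtie2 2.2.5 in the submitters' processing notes) to GRCm38 or GRCh38 and quantified in SEQMONK, with duplicates removed and peaks called by MACS for ChIP. Within a ChIP table, all libraries share 1 peak list. Reads before scaling were recovered from the step between low values of each library, which gave whole numbers (within 0.02) for 100% of values. The RNA kit was directional, but the use of strand in counting is not given in the sources used here, so reads of overlapping neighbours cannot be told apart, as at KAT7 and FAM117A or KAT5 and RNASEH2C. Among RNA counts of 1 to 99, odd numbers made up 50.8 to 68.5% in HCT116 libraries and 65.6 to 66.3% in colon libraries.

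Genes were tested with edgeR 4.0.16 (quasi-likelihood, TMM, filterByExpr, Benjamini-Hochberg adjustment) and peaks with limma 3.58.1 (eBayes with trend) on the log2 values, for peaks with at least 10 scaled reads in at least 3 libraries. Both were checked on simulated data. Same-numbered RNA libraries deviated together from their group means (r = 0.226, 0.151, 0.436 and 0.460, each above 0.1), and were treated as pairs; this rests on the data, as the labels do not say what a number shares. DMSO library 2 with MS275 library 4 (0.239) and DMSO library 4 with MS275 library 2 (0.219) correlated more than the pair numbered 2. ChIP libraries did not meet this criterion and were not paired, although a figure legend of the study names a paired test for these libraries (0.108, 0.073 and 0.229 for H3K18cr; −0.207, 0.046 and −0.134 for H3K18ac). Start peaks lie within 1 kb of an annotated transcript start (GENCODE 44 and M21), for a member one of its own and for the whole table one of any protein-coding gene. The members, partner lists and rules were chosen with earlier results of these data known. All members were named, and of the partners the 3 largest rises and falls among those called. Alternatives were DESeq2 1.42.0, other scalings, filters, lengths, windows and leaving out libraries.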

Additional observations from a re-analysis of the deposited data

How the results depend on the processing

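Over the 10 members, the count of RNA calls was 0 with DESeq2, RLE size factors, no filter, without both libraries numbered 3 and without any single library, 2 with the replicate block and 3 with the block but without both libraries numbered 3. For the 80 partners it was 0 without any single library, 1 with no filter or without both libraries numbered 3, 3 with DESeq2 and 16 with the block, with or without the libraries numbered 3. Leaving out 1 library moved the unpaired log2 change of EP300 between −0.17 and 0.22, of CREBBP between −0.22 and 0.025, of KAT2B between −0.093 and 0.63, of KAT6A between −0.062 and 0.33 and of HAT1 between −0.38 and 0.065, so no direction can be given for these 5. It moved that of KAT2A between −0.92 and −0.42, of KAT7 between −0.30 and −0.062 and of KAT8 between −0.22 and −0.073. At the KAT2B start, H3K18cr changed by 0.17 with TMM scaling (with or without block), by 0.11 with edgeR on recovered reads and by −0.40 to 0.12 without single libraries, and H3K18ac by 0.16, 0.24 and −0.32 to 0.19. Of the other 10 start peaks, every change of both marks stayed below 0 under each alternative run. Called member peaks numbered 6 to 10 for H3K18cr and 4 to 11 for H3K18ac without single libraries, in fits that called 14.9 to 31.7% and 3.61 to 23.3% of all peaks. With the replicate block they numbered 10 for H3K18cr and 1 for H3K18ac (26.6% and 2.03% of all peaks), and with the block and TMM scaling together 8 (7 lower and 1 higher, the widest intronic KAT6B peak at adjusted p = 0.0499) and 10 (9 lower and 1 higher), where 23.7% and 19.1% of all peaks were called. A figure legend of the study names a paired test for these ChIP libraries, without saying what was paired, and the cause was not tested. The mark difference was called at 0 peaks with the block. With joined exons as length, the median level of the members was 4.92 CPM per kb in HCT116 and 9.99 in colon, against 7.91 and 12.5. Leaving out both libraries numbered 3, the block with TMM scaling, the joined exons and the single libraries of the mark difference were chosen after seeing the data. What change 3 libraries per group could resolve at intronic peaks of few reads was not tested.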
